A study of Mus musculus with 18 samples.

Results

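The genes described here encode the basement membranes and the interstitial matrix of the testis and the enzymes that modify or cut them. They came from a list of 44 symbols, and 43 of them had at least 1 probe set annotated to that symbol alone, of 12393 genes so measured on the array. Fbn1 was not analysed here. By role, 20 of the 43 belong to basement membranes, 13 to fibrillar and other interstitial matrix and 10 to modification and remodelling. They had 73 probe sets in all, up to 3 per gene, and the probe set with the highest mean over all arrays stands for its gene unless a further probe set is named.

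RNA came from whole testes of hpg male mice aged 10 weeks, which lack gonadotrophin-releasing hormone and therefore make almost no FSH or luteinising hormone of their own. Recombinant FSH (Gonal F) was given subcutaneously at 8 IU in 0.2 ml of buffered saline every 12 h, for 12 h (4 mice), 24 h (3 mice) or 72 h (4 mice). The 7 controls were hpg males of that age that received no treatment, so injection and vehicle differed from the treated mice together with the hormone. All 18 mice carried the hpg deficiency, and no wild-type testis was analysed here. Each mouse gave 1 Affymetrix MOE430A array.

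A basement membrane is a thin sheet in which a laminin network and a type IV collagen network are joined by nidogens and heparan sulphate proteoglycans. In the testis such a sheet surrounds each seminiferous tubule, and Sertoli cells on its inner side and peritubular myoid cells on its outer side both supply its components. Sertoli cells carry the FSH receptor. Outside the tubules, fibrillar collagens, small proteoglycans such as decorin and matrix-cutting metalloproteinases make up and remodel the interstitium.

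The arrays formed 2 technical sets. The bacterial Dap spike-in read 8.00 to 8.92 (log2) on the 12 arrays of 12 h, 72 h and controls 4 to 7, and 2.74 to 3.30 on the 6 arrays of 24 h and controls 1 to 3. The 18S ribosomal RNA signal ran the other way, at 3.35 to 3.70 in the first set and 9.07 to 11.69 in the other. Each time point is therefore set against the controls of its own array set. Of the cell type markers, 14 of 14 measured for Sertoli cells had a mean log2 value of at least 4, as had 7 of 12 for peritubular myoid cells, 7 of 9 for fibroblasts and 0 of 7 for epididymis and rete. In whole tissue, fewer cells of a type and less RNA per cell cannot be told apart. P-values below are from limma across all probe sets, adjusted by the Benjamini-Hochberg method, and a gene is called higher or lower at an adjusted p below 0.05.

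Counts of calls are given first for all 43 genes and then by role. After 12 h of FSH 5 of the 43 genes were called higher and 2 lower, where 3.52% and 2.76% of all 12393 genes were called. After 24 h the counts were 3 higher and 6 lower, against 6.37% and 8.45% of all genes. After 72 h they were 11 higher and 1 lower, against 4.23% and 3.03% of all genes. Between 72 h and 12 h, 3 genes were higher and 1 lower at 72 h, against 1.76% and 1.1% of all genes. The median difference of the 43 genes was 0.13, 0.03 and 0.24 (log2) at 12, 24 and 72 h, while the medians of all genes lay between -0.00 and 0.04. In all, 19 genes were called in at least 1 of the 4 comparisons and 24 in none. The share of all genes called in at least 1 comparison was not counted, so these 2 counts have no background beside them. Without control 5, 10 genes were higher at 12 h, and without 12 h replicate 1, 2 or 3, 72 h replicate 3 or control 4, 5 or 6, 1 gene was lower. At 24 h, leaving out 24 h replicate 3 or control 2 gave 5 higher, and leaving out control 1 gave 3 lower. At 72 h 2 were lower without 24 h replicate 2, 72 h replicate 2 or control 3, and 2 were lower at 72 h than at 12 h without 12 h replicate 3 or control 3 or 5. The 12 h and 72 h comparisons share controls 4 to 7.

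The basement membrane genes held more of the calls than either other role at each time, but at 20 of the 43 they are also the largest role. Of all genes, 3.52%, 6.37% and 4.23% were called higher at 12, 24 and 72 h, and 2.76%, 8.45% and 3.03% lower. Of the 20 basement membrane genes, 4 were higher and 0 lower at 12 h, 2 higher and 4 lower at 24 h, and 7 higher and 0 lower at 72 h. Their median differences were 0.14, -0.01 and 0.05, so the calls rested on a minority of large changes. Of the 13 fibrillar and interstitial genes, 0, 1 and 3 were higher and 1, 1 and 1 lower at the 3 times, with medians of 0.13, -0.02 and 0.42. Of the 10 modifying and remodelling genes, 1, 0 and 1 were higher and 1, 1 and 0 lower, with medians of 0.07, 0.05 and 0.27. Col18a1 was the only one of the 43 called higher at all 3 times, and Dcn the only one called lower at all 3. The shares of all genes called at all 3 times were not counted.

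**Figure D1:**
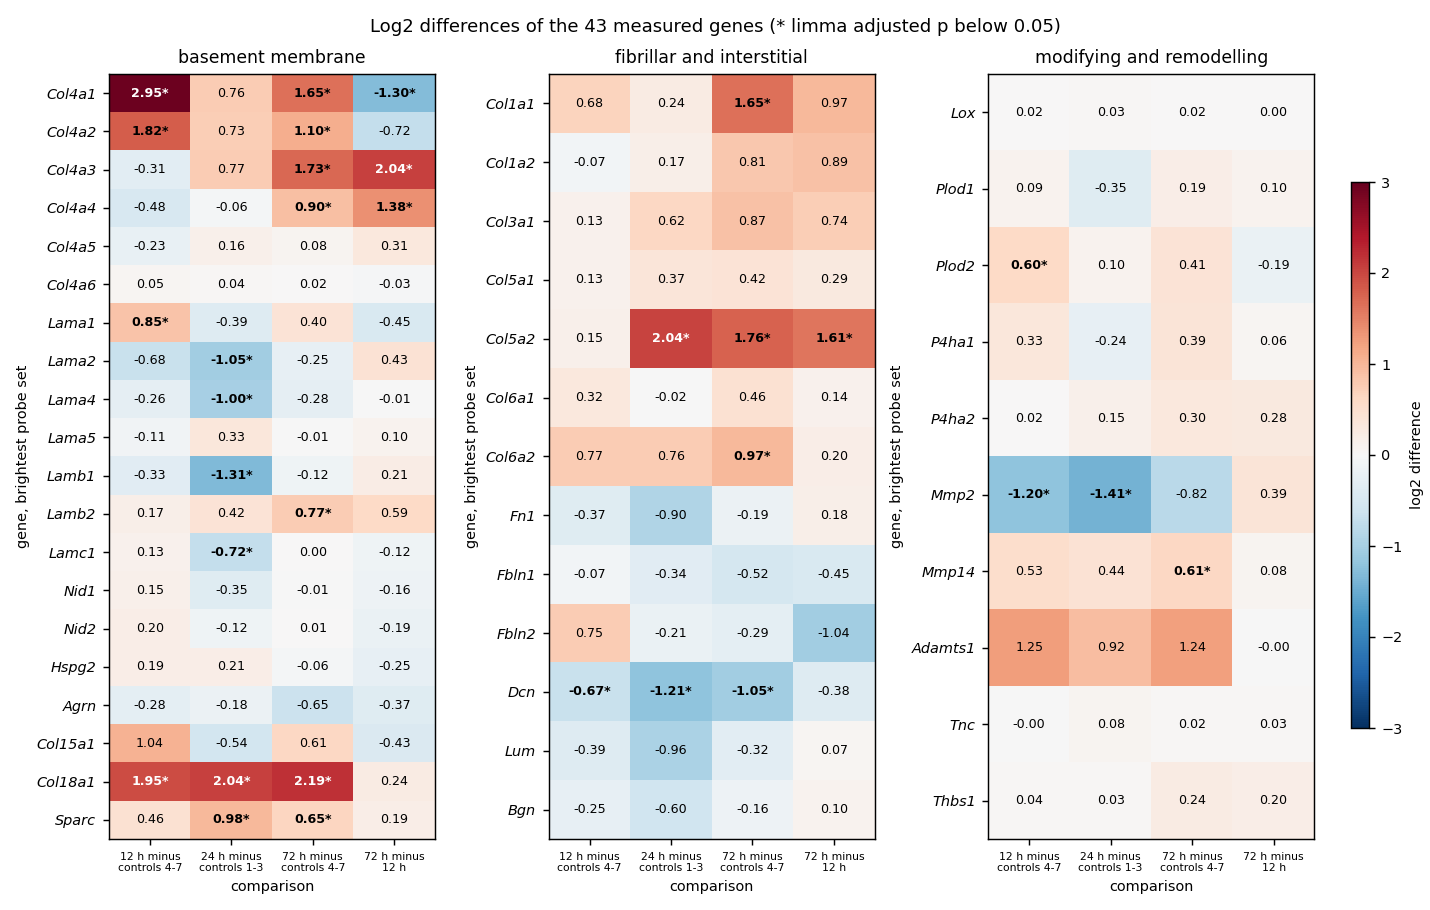
Log2 differences of the 43 measured genes (rows, brightest probe set) in 4 comparisons (columns), with the number written in each cell and a star where the limma adjusted p was below 0.05. Red cells are higher and blue cells lower in the first-named group. Col4a1 at 12 h (2.95) is the largest difference, Col18a1 is red at 12, 24 and 72 h, and the 24 h column holds most of the starred blue cells.

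Type IV collagen is a trimer of alpha chains encoded by 6 genes that lie in 3 head-to-head pairs, Col4a1 with Col4a2 on chromosome 8, Col4a3 with Col4a4 on chromosome 1 and Col4a5 with Col4a6 on chromosome X. Each pair is adjacent in the RefSeq annotation (GRCm38.p6). The alpha1 and alpha2 chains form the widespread trimer of nearly all basement membranes, and the other chains form trimers in selected tissues such as the kidney glomerulus. The annotated start sites of Col4a1 and Col4a2 lie 21 bases apart on opposite strands. As annotated the 2 transcripts overlap there, and the GC box shown lies 7 bases after the Col4a2 start and 9 after that of Col4a1. The stretches below come from the RefSeq promoter windows. They are shown because the 2 start sites lie so close and both genes were called higher at 12 h and 72 h. Capitals mark a CCAAT box in the first and second (ATTGG is the same box on the other strand) and, in the last, a GC box between both start sites.
Col4a1, chr8:11312954-11312983, minus strand: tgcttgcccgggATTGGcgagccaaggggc
Col4a2, chr8:11312761-11312790, plus strand: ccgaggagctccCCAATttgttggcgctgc
Col4a2 and Col4a1, chr8:11312800-11312829, plus strand: tcggcagtgcgcGGGCGGcgtctccaaggg

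Col4a1 had the largest change of the whole group and was called higher at 12 h and 72 h. It read 10.13, 10.31, 10.68 and 10.57 (log2) in the 12 h testes and 8.93, 9.07, 9.32 and 9.19 in the 72 h testes, against 7.76, 7.80, 7.23 and 7.10 in controls 4 to 7. All 3 groups were separate, with 12 h highest and 72 h between 12 h and the controls. At 12 h Col4a1 was 7.73-fold higher than in controls (2.95 ± 0.25 SE, adjusted p = 6.6e-06), and at 72 h 3.14-fold (1.65 ± 0.25, adjusted p = 0.000944). The 72 h testes were lower than the 12 h testes by 2.46-fold (-1.30 ± 0.25, adjusted p = 0.0122). In the other array set it read 7.77, 8.17 and 7.83 in the 24 h testes, against 7.41, 7.71 and 6.37 in controls 1 to 3. These groups did not overlap, but their difference of 0.76 ± 0.29 was not called (adjusted p = 0.0912), and without control 2 it was 1.04 (adjusted p = 0.0366). A second Col4a1 probe set was called higher at all 3 times, with differences of 2.08, 1.17 and 0.74 at 12, 24 and 72 h, and its call at 72 h did not hold when 72 h replicate 2 or 3 or control 6 or 7 was left out (adjusted p from 0.0749 to 0.0826). The gain over controls was smaller at 24 h than at 12 h by 2.19 ± 0.38 when each was set against its own controls (adjusted p = 0.0162).

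Col4a2 followed the same order of times at a smaller size. It read 8.55, 8.48, 8.78 and 8.47 at 12 h and 7.72, 7.81, 8.10 and 7.76 at 72 h, against 6.99, 7.06, 6.34 and 6.59 in controls 4 to 7. The 3 groups were again separate. The 12 h testes exceeded controls by 3.54-fold (1.82 ± 0.21, adjusted p = 9.03e-05) and the 72 h testes by 2.14-fold (1.10 ± 0.21, adjusted p = 0.00516). The difference of -0.72 ± 0.21 between 72 h and 12 h was not called (adjusted p = 0.0996), though it was called without control 3 (adjusted p = 0.0321) and on the arrays of that set alone (adjusted p = 0.0404). At 24 h the values of 7.35, 7.58 and 6.97 stood above the 6.88, 6.87 and 5.97 of controls 1 to 3, a difference of 0.73 ± 0.24 that was not called (adjusted p = 0.059). That difference was called without 24 h replicate 3 (0.90), control 2 (0.88) or control 6 (0.73), with adjusted p of 0.0399, 0.0499 and 0.0492.

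Col4a3 and Col4a4 changed late. Col4a3 read 6.19, 6.24, 6.25 and 6.32 at 72 h, against 4.57, 4.35, 3.97 and 3.95 at 12 h and 4.45, 4.48, 4.49 and 4.65 in controls 4 to 7. Every 72 h testis was far above every other array of that set, while the 12 h testes overlapped the controls. Col4a3 was 3.33-fold higher at 72 h than in controls (1.73 ± 0.25, adjusted p = 0.000649) and 4.11-fold higher at 72 h than at 12 h (2.04 ± 0.25, adjusted p = 0.000552). The 12 h difference from controls was -0.31 ± 0.25 and was not called (adjusted p = 0.721). At 24 h the values were 4.64, 5.90 and 4.57, against 3.79, 4.49 and 4.51 in controls 1 to 3, and replicate 2 alone stood high. This difference of 0.77 was not called (adjusted p = 0.0893) but was called without 24 h replicate 1 (0.96, adjusted p = 0.0491) or replicate 3 (1.0, adjusted p = 0.0456).

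Col4a4 read 4.64, 4.88, 5.04 and 5.38 at 72 h, against 3.71, 3.70, 3.51 and 3.50 at 12 h and 4.03, 4.42, 4.10 and 3.77 in controls 4 to 7. The 72 h testes lay above both other groups, and the 12 h testes lay below every control. It was 1.87-fold higher at 72 h than in controls (0.90 ± 0.15, adjusted p = 0.00182) and 2.61-fold higher than at 12 h (1.38 ± 0.15, adjusted p = 0.000223). The lower values at 12 h were not called (-0.48 ± 0.15, adjusted p = 0.0838), except without 72 h replicate 4 or control 7 (adjusted p = 0.0429 and 0.0449). At 24 h Col4a4 read 4.12, 4.09 and 4.11, within the 4.05 to 4.38 of controls 1 to 3. Many of its values lie near the dim end of the array, as do the 12 h and control values of Col4a3. There the size of a log2 difference is uncertain.

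The third pair was not called in any comparison. Col4a5 differed from its controls by -0.23, 0.16 and 0.08 at 12, 24 and 72 h, and Col4a6, with values of 3.62 to 4.10 on all 18 arrays, by at most 0.05 at any time. Col4a6 was dim, at a mean of 3.80, so its flat values do not show that the transcript was unchanged. A second Col4a5 probe set, also not called, went the other way at 24 h. It read 5.21, 5.84 and 5.68, against 6.87, 6.31 and 5.80 in controls 1 to 3. The time difference between 72 h and 12 h was thus -1.30 for Col4a1 and -0.72 for Col4a2, against 2.04 and 1.38 for Col4a3 and Col4a4, and 0.31 and -0.03 for Col4a5 and Col4a6. The plot of the type IV collagens by array shows these 3 courses.

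**Figure D2:**
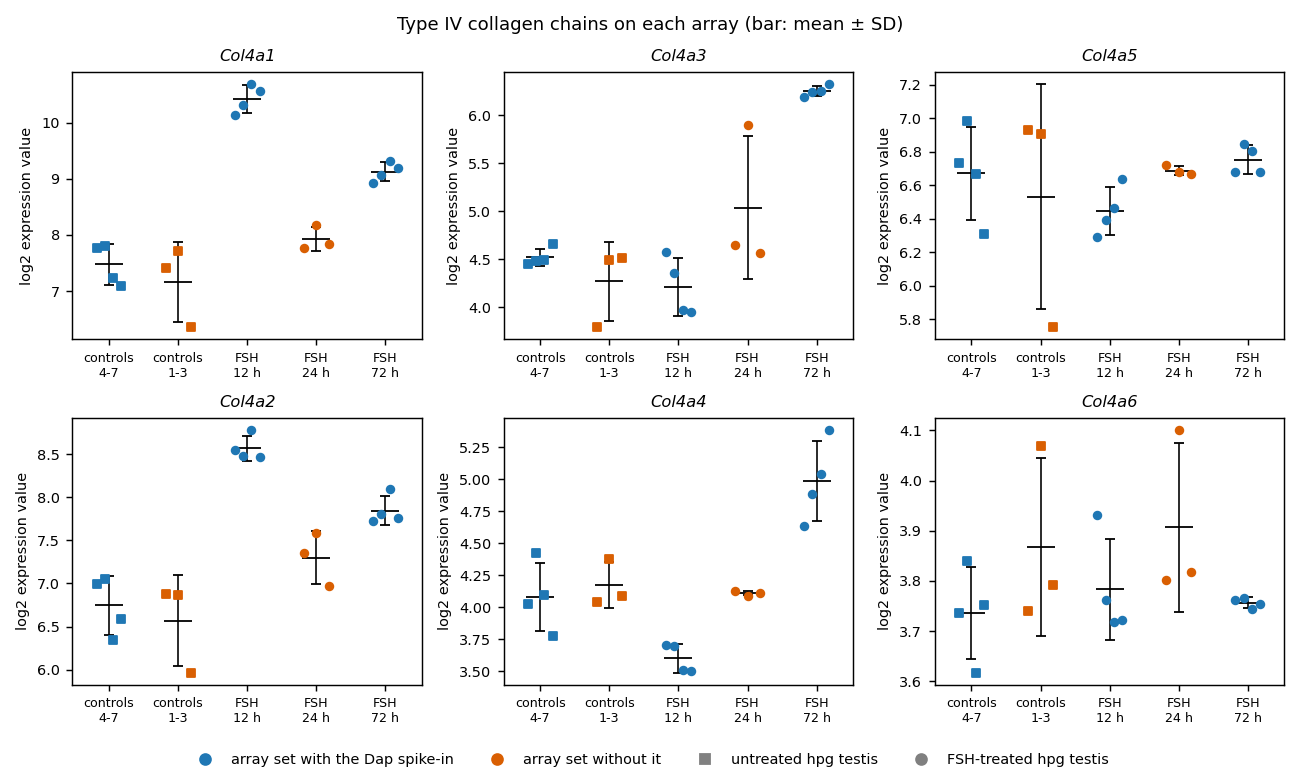
Log2 values of the 6 type IV collagen genes on each of the 18 arrays, in columns for controls 4 to 7, controls 1 to 3, 12 h, 24 h and 72 h of FSH. Squares are untreated and circles FSH-treated testes, colour gives the array set, and bars show the mean and SD. Col4a1 and Col4a2 peak at 12 h, while Col4a3 and Col4a4 stand out at 72 h alone.

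Laminins are trimers of an alpha, a beta and a gamma chain that start the assembly of a basement membrane and bind the cell surface. Of the 7 laminin genes, 1 was higher at 12 h, 4 were lower at 24 h and 1 was higher at 72 h. Of all genes, 3.52% were called higher at 12 h, 8.45% lower at 24 h and 4.23% higher at 72 h. Lama1, the alpha1 chain of early and epithelial basement membranes, read 8.65, 8.64, 8.73 and 9.08 at 12 h, against 7.93, 8.03, 7.92 and 7.82 in controls 4 to 7. The groups did not overlap, and Lama1 was 1.80-fold higher (0.85 ± 0.16, adjusted p = 0.00439). At 72 h it read 8.03 to 8.55 and the difference of 0.40 was not called (adjusted p = 0.187). At 24 h it was -0.39 ± 0.18 (adjusted p = 0.159), and the difference between the 24 h and 12 h effects, -1.24 ± 0.24, was called (adjusted p = 0.0262).

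The 4 laminin chains called at 24 h were all lower. Lamb1, the common beta1 chain, read 7.61, 6.87 and 6.75 at 24 h, against 8.66, 8.57 and 7.95 in controls 1 to 3, which is 2.49-fold lower (-1.31 ± 0.23, adjusted p = 0.00234). Further probe sets of Lamb1 gave -0.84 (adjusted p = 0.11) and -0.98 (adjusted p = 0.0424), and the -0.98 was not called without 11 of the 18 arrays taken singly or with the replicate number as a block (adjusted p = 0.109). Lama2, the alpha2 chain known from muscle basement membranes, read 8.84, 9.22 and 8.16 at 24 h, against 10.10, 9.94 and 9.34 in controls 1 to 3, which is 2.07-fold lower (-1.05 ± 0.24, adjusted p = 0.0108). Neither gene's groups overlapped, and the Lama2 call was lost without control 1 (-0.90, adjusted p = 0.0566). At 12 h Lama2 was -0.68 ± 0.21 with no overlap of the groups and was not called (adjusted p = 0.0809), though leaving out 24 h replicate 2 or 3 brought the adjusted p to 0.0476 and 0.0284.

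Lama4, the alpha4 chain of vessel walls, read 4.81, 4.51 and 3.51 at 24 h, against 5.55, 5.47 and 4.80 in controls 1 to 3, and Lamc1, the gamma1 chain of most laminins, read 4.56, 5.05 and 4.5, against 5.68, 5.66 and 4.91 in those controls. Both genes' groups overlapped through control 3, which read low, and both were called lower (-1.0 ± 0.29, adjusted p = 0.038, and -0.72 ± 0.21, adjusted p = 0.0354). Lama4 was not called when 24 h replicate 2 or 3, 72 h replicate 3, or control 1 or 2 was left out, with differences of -1.12 to -0.61 and adjusted p of 0.0502 to 0.143. Lamc1 was not called when 24 h replicate 1 or 3, or control 1 or 2 was left out, with differences of -0.65 to -0.59 and adjusted p of 0.0756 to 0.147. With the replicate number as a block, which gives each number 1 effect shared by all groups, Lamc1 was -0.72 and was not called (adjusted p = 0.0763). Dim further probe sets of Lama4 and Lamc1, with means of 2.12 and 2.68, gave 0.07 and 0.10. None of the 4 was called when the 6 arrays of that set were fitted alone, at the same differences, with adjusted p of 0.227 (Lama2), 0.307 (Lama4), 0.123 (Lamb1) and 0.282 (Lamc1). Control 3 and 24 h replicate 3 were the lowest of their groups for Lama2, Lama4, Lamb1 and Lamc1.

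Lamb2, the beta2 chain found in glomerular and synaptic basement membranes, was called higher at 72 h. It read 8.11, 8.29, 8.31 and 8.27 at 72 h, against 7.74, 7.55, 7.14 and 7.49 in controls 4 to 7, with no overlap, and was 1.70-fold higher (0.77 ± 0.19, adjusted p = 0.0277). Lamb2 was no longer called when 72 h replicate 2, 3 or 4 or control 5, 6 or 7 was left out, with differences of 0.65 to 0.79 and adjusted p of 0.0514 to 0.0788. The 12 h value of 0.17 and the 24 h value of 0.42 were not called. Lama5 lay near the dim end of the array, at 2.67 to 3.89, and was not called.

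The linkers and most proteoglycans of basement membranes were not called. Nid1 and Nid2, the nidogens that bridge laminin and collagen, ranged from -0.35 to 0.20 in their differences from controls, and Hspg2, which encodes perlecan, from -0.06 to 0.21. Agrn, which encodes agrin, was -0.65 ± 0.27 at 72 h (adjusted p = 0.219), and without control 3 its adjusted p was 0.0357. Col15a1, a collagen of the zone where basement membranes meet the interstitium, read 7.14, 6.45, 6.49 and 6.4 at 12 h, against 5.49, 6.05, 5.38 and 5.41 in controls 4 to 7. These groups did not overlap, and the difference of 1.04 ± 0.34 was not called (adjusted p = 0.11). Leaving out 24 h replicate 2 or 3 made it a call (adjusted p = 0.0427 and 0.024), and on the 24 h arrays its values spread from 3.32 to 5.36.

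Col18a1, a basement membrane collagen and proteoglycan whose end fragment is endostatin, was higher by a similar amount at every time. It read 8.88, 9.25, 9.33 and 9.06 at 12 h and 8.99, 9.44, 9.62 and 9.41 at 72 h, against 7.27, 7.51, 6.74 and 7.19 in controls 4 to 7. In the other set it read 9.24, 8.78 and 8.52 at 24 h, against 6.98, 6.94 and 6.5 in controls 1 to 3. Every treated testis was above every control. Col18a1 was 3.87-fold higher at 12 h (1.95 ± 0.19, adjusted p = 2.58e-05), 4.12-fold at 24 h (2.04 ± 0.22, adjusted p = 5.13e-05) and at 72 h 4.56-fold (2.19 ± 0.19, adjusted p = 1.11e-05). The difference between 72 h and 12 h was 0.24 ± 0.19 and was not called (adjusted p = 0.867). A second probe set gave 2.0, 1.96 and 1.9 at 12, 24 and 72 h, all called.

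Col18a1 had 2 start sites in the RefSeq promoter table. Col18a1 was the only one of the 43 called higher at all 3 times on its brightest probe set. For that reason the 250 bases before the first start site are shown. This site was chosen for its upstream GC boxes, and the bases hold 3, written in capitals (CCGCCC is GGGCGG on the other strand). The same bases also hold a CCAAT box, left in small letters (attgg, read on the other strand). The promoter window of the other start site held none of the motifs counted below.
Col18a1, chr10:77166531-77166780, minus strand: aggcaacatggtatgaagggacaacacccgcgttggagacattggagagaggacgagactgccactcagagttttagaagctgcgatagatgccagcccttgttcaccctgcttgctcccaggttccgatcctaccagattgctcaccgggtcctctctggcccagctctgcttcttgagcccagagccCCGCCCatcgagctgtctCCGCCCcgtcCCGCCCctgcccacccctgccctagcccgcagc

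Promoter windows of 300 bases, from 250 before to 50 after the start site, were found for 29 of the genes, 34 windows in all. The GC box, GGGCGG, was present in 26 of the 34 (76.5%), against 35.7% of all 32851 windows in the table. The CCAAT box, CCAAT, was in 8 (23.5% against 37.4%) and the TATA box, TATAAA, in 6 (17.6% against 13.6%). The full cyclic AMP response element, TGACGTCA, was in 0 of the 34, where 1.79% of all windows held it, and its short form TGACG, which the full element contains, was in 5 (14.7% against 20.8%). The AP-1 site, TGANTCA, was in 1 (2.94% against 7.81%). Both strands were searched, and a match is a run of letters and not evidence of binding. The Col4a1 and Col4a2 windows overlap, so the GC box between their start sites is counted in both. The 2 Tnc windows also overlap, and their GC box and TATA box are each a single site counted in both.

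Sparc, a calcium-binding protein that binds collagen in basement membranes and interstitium, was called higher at 24 h and 72 h. It read 12.35, 12.47 and 12.45 at 24 h, against 11.34, 11.72 and 11.27 in controls 1 to 3, and was 1.97-fold higher (0.98 ± 0.15, adjusted p = 0.00085). At 72 h it read 11.66, 12.06, 11.95 and 12.04, against 11.29, 11.57, 11.36 and 10.91 in controls 4 to 7, and was 1.56-fold higher (0.65 ± 0.13, adjusted p = 0.0077). The groups did not overlap at either time. At 12 h the difference of 0.46 ± 0.13 was not called (adjusted p = 0.0594), except without 72 h replicate 1 or control 2 or 5 (adjusted p = 0.048, 0.0414 and 0.0231). A second Sparc probe set gave 0.57 at 24 h (adjusted p = 0.0898).

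**Figure D3:**
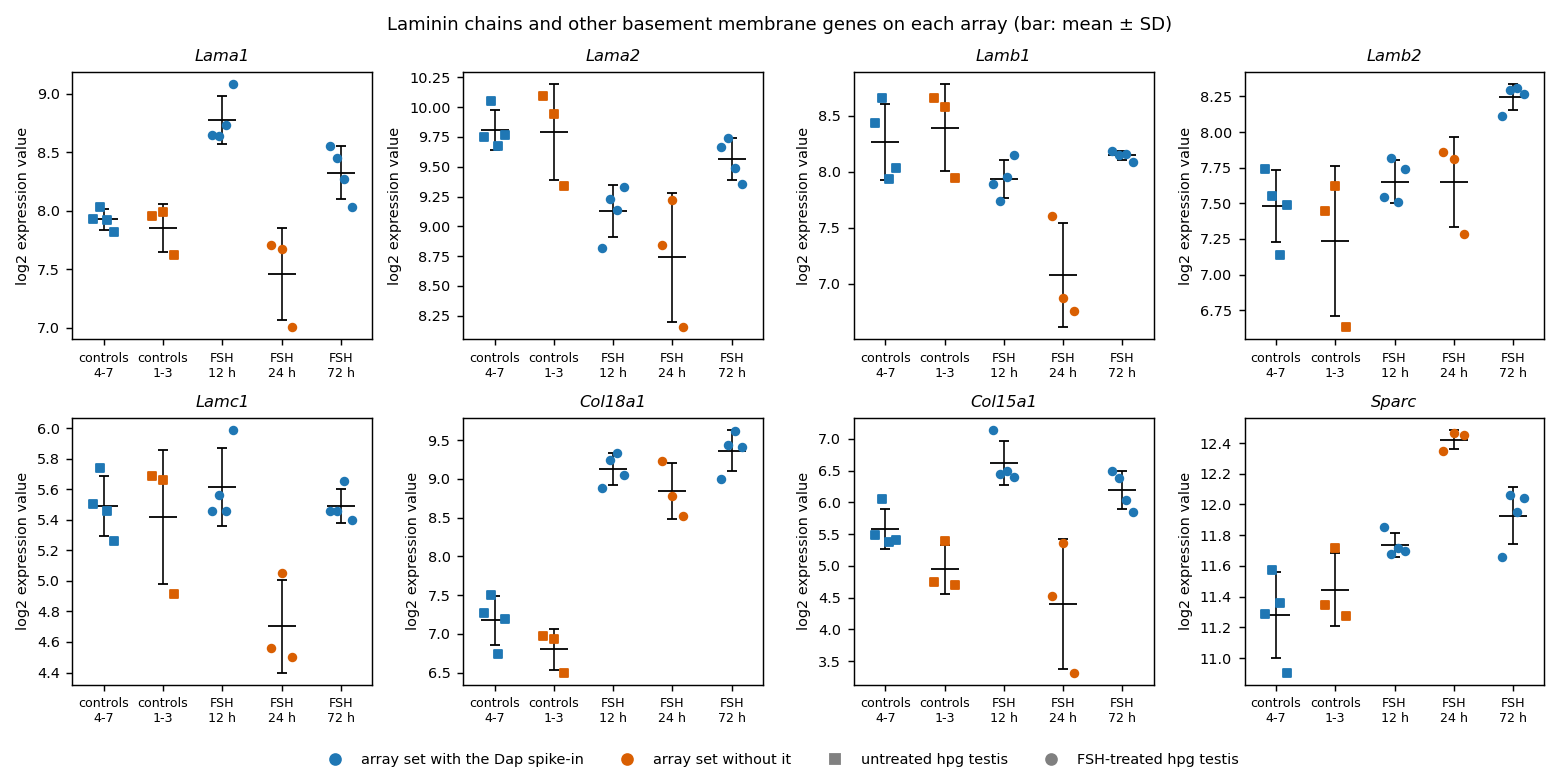
Log2 values of 5 laminin chains, Col18a1, Col15a1 and Sparc on each of the 18 arrays, in columns for controls 4 to 7, controls 1 to 3, 12 h, 24 h and 72 h of FSH. Squares are untreated and circles FSH-treated testes, colour gives the array set, and bars show the mean and SD. Lama1 is highest at 12 h, Lama2, Lamb1 and Lamc1 are lowest at 24 h, and every treated value of Col18a1 lies above every control value.

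Among the 13 fibrillar and interstitial genes, the collagen chains Col1a1, Col5a2 and Col6a2 were called higher at 72 h, and Dcn lower at all 3 times. Type I, III and V collagens form the banded fibrils of connective tissue, and type VI collagen forms beaded filaments around cells. Col1a1, the alpha1 chain of type I collagen, read 8.49, 8.82, 7.96 and 7.86 at 72 h, against 6.27, 6.98, 7.19 and 6.07 in controls 4 to 7. The groups did not overlap, and Col1a1 was 3.14-fold higher (1.65 ± 0.35, adjusted p = 0.0102). It was 0.68 at 12 h and 0.24 at 24 h, neither called. A second probe set gave 0.94 at 72 h (adjusted p = 0.0607).

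Col5a2, a chain of the type V collagen that sets fibril width, was called higher at 24 h and 72 h. It read 7.59, 7.44, 6.85 and 7.21 at 72 h, against 5.57, 5.66, 5.09 and 6.32 at 12 h and 5.6, 5.89, 5.38 and 5.16 in controls 4 to 7. The 72 h testes were above both other groups, and the 12 h testes overlapped the controls. Col5a2 was 3.40-fold higher at 72 h than in controls (1.76 ± 0.39, adjusted p = 0.0135) and 3.06-fold higher than at 12 h (1.61 ± 0.39, adjusted p = 0.0439). The call between 72 h and 12 h was lost without 13 of the 18 arrays, namely any 72 h replicate, 12 h replicate 1, 2 or 3, 24 h replicate 1 or any of controls 3 to 7, with differences of 1.42 to 1.75 and adjusted p of 0.05 to 0.154. At 24 h it read 6.5, 6.80 and 5.20, against 3.47, 5.13 and 3.80 in controls 1 to 3, and was 4.10-fold higher (2.04 ± 0.45, adjusted p = 0.00888), though not called on the 6 arrays of that set alone (adjusted p = 0.201) or without a term for the set (1.25, adjusted p = 0.0561). A dimmer probe set of Col5a2, with a mean of 3.66, gave -0.25 at 24 h (adjusted p = 0.606) and 0.96 at 72 h (adjusted p = 0.0524).

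The other chains of type I and type III collagen differed between their probe sets. Col1a2 read 11.52, 11.57, 11.09 and 10.91 at 72 h, against 10.24, 10.70, 10.75 and 10.15 in controls 4 to 7, and the difference of 0.81 ± 0.25 was not called (adjusted p = 0.0712). Its second probe set was called at 72 h (1.52 ± 0.22, adjusted p = 0.00075) and between 72 h and 12 h (1.20 ± 0.22, adjusted p = 0.0102). Col3a1 read 12.00, 12.28, 11.69 and 11.72 at 72 h, against 10.77, 11.46, 11.30 and 10.67 in controls 4 to 7, and the difference of 0.87 ± 0.26 was not called (adjusted p = 0.068), but its adjusted p was 0.0487 and 0.0472 when 12 h replicate 4 or control 2 was left out. Its dimmer second probe set was called (1.62 ± 0.40, adjusted p = 0.0258), but not without 72 h replicate 2, 3 or 4 or control 6 or 7 (adjusted p from 0.0592 to 0.076). In both genes all 4 of the 72 h testes were above all 4 controls on the brightest probe set.

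Col6a2, a chain of type VI collagen, read 7.52, 7.88, 7.08 and 7.04 at 72 h, against 6.45, 6.93, 6.33 and 5.94 in controls 4 to 7, and was 1.96-fold higher (0.97 ± 0.23, adjusted p = 0.0214). Without 72 h replicate 1 or 2 or control 6 or 7 it was not called, with differences of 0.80 to 0.94 and adjusted p of 0.0503 to 0.0723. Its differences of 0.77 at 12 h and 0.76 at 24 h were not called although the groups did not overlap (adjusted p = 0.0734 and 0.0751), and without control 5 the 12 h value was 0.94 (adjusted p = 0.0284). Col5a1 and Col6a1 were not called on their brightest probe sets, with differences of -0.02 to 0.46. A dimmer Col5a1 probe set, with a mean of 4.04, was called higher at 24 h (0.94, adjusted p = 0.0454). That call was lost without 12 of the 18 arrays taken singly (adjusted p from 0.0512 to 0.116). It was also lost on the 6 arrays of that set alone (adjusted p = 0.173).

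Dcn encodes decorin, a small proteoglycan that coats collagen fibrils and binds growth factors. It read 11.37, 11.98, 11.97 and 12.29 at 12 h and 11.62, 11.80, 11.44 and 11.22 at 72 h, against 12.49, 12.83, 12.52 and 12.44 in controls 4 to 7. At 24 h it read 11.62, 11.70 and 11.26, against 12.66, 12.84 and 12.71 in controls 1 to 3. No treated testis reached the lowest control of its set. Dcn was 2.31-fold lower at 24 h (-1.21 ± 0.20, adjusted p = 0.00144) and 2.07-fold lower at 72 h (-1.05 ± 0.17, adjusted p = 0.00199). At 12 h it was 1.59-fold lower (-0.67 ± 0.17, adjusted p = 0.0385). At 12 h Dcn was not called without 12 h replicate 1, 2 or 3, 72 h replicate 3, or any of controls 4 to 7, with differences of -0.71 to -0.49 and adjusted p of 0.0531 to 0.102, and on the 12 arrays of that set alone (adjusted p = 0.0728).

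The remaining interstitial genes were not called on their brightest probe sets. Lum and Bgn, which encode the related proteoglycans lumican and biglycan, were -0.96 and -0.60 at 24 h (adjusted p = 0.0751 and 0.076) and between -0.39 and -0.16 at 12 h and 72 h. Lum was called at 24 h without 24 h replicate 1 (-1.20, adjusted p = 0.0386), and Bgn without 24 h replicate 2 (-0.76, adjusted p = 0.0494) or control 3 (-0.77, adjusted p = 0.0347). A second Bgn probe set, with a mean of 8.91, was called lower at 24 h (-0.75, adjusted p = 0.039). That call was lost without 7 of the 18 arrays taken singly (adjusted p from 0.0503 to 0.153). It was also lost on the 6 arrays of that set alone (adjusted p = 0.311). Fn1, fibronectin, was -0.90 ± 0.33 at 24 h, with no overlap of the groups (adjusted p = 0.0868), and it was called with the replicate number as a block (-0.90, adjusted p = 0.00841) and without control 6 (adjusted p = 0.0483). Fbln1, fibulin 1, differed by -0.52 to -0.07. Fbln2 was dim, at 1.93 to 3.99, and without control 5 or 12 h replicate 3 it was called at 12 h (0.96 and 0.99, adjusted p = 0.0479 and 0.0346).

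Markers of the cells that could supply these genes are set beside the matrix results. For their counts, 3.52%, 6.37% and 4.23% of all genes were called higher at 12, 24 and 72 h, and 2.76%, 8.45% and 3.03% lower. The mean log2 value of 9 fibroblast markers, 7 of them at or above 4, lay between 5.97 and 6.82 at 24 h, against 6.73 to 7.26 in controls 1 to 3. It lay between 6.60 and 7.11 at 12 h and between 6.71 and 6.97 at 72 h, against 6.84 to 7.47 in controls 4 to 7. Of the 9 markers, 0 were higher and 1, 3 and 1 lower at 12, 24 and 72 h. The mean of 12 peritubular myoid and smooth muscle markers, of which 5 had a mean under 4, was 6.64 to 7.05 at 12 h and 6.52 to 6.74 at 72 h, against 6.22 to 6.63 in controls 4 to 7. At 24 h this mean was 6.47 to 6.62, against 6.18 to 6.40 in controls 1 to 3, and 2, 1 and 1 of the 12 were higher and 0 lower at the 3 times. Of 14 endothelial markers 8 had a mean under 4, and 0 were higher and 2, 1 and 0 lower. Among 7 Leydig cell markers, 1 with a mean under 4, 3, 4 and 0 were higher and 0 lower, and their mean was 8.02 to 8.39 at 12 h, against 6.56 to 7.46 in controls 4 to 7. The Leydig mean was 7.76 to 8.48 at 24 h, against 6.51 to 6.64 in controls 1 to 3. Of the 14 Sertoli markers 3, 3 and 4 were higher and 2, 3 and 1 lower, and their mean was 8.44 to 9.11 at 12 h and 9.66 to 9.84 at 72 h, against 8.68 to 9.22 in controls 4 to 7. At 72 h the median difference of the Sertoli markers was 0.18, with 8 of 14 positive. The 4 called higher then were Rhox5 (4.27), Tsx (2.33), Inha (1.94) and Shbg (1.22), and Fshr, the FSH receptor, was lower (-1.11, adjusted p = 0.0031). Of 12 macrophage markers, 3 with a mean under 4, 0, 0 and 2 were higher and 1, 1 and 0 lower, and their mean was 5.75 to 6.07 at 72 h, against 5.25 to 5.46 at 12 h and 5.28 to 5.77 in controls 4 to 7. Of 8 spermatogonial markers, 2 with a mean under 4, 0 were higher and 1, 3 and 2 lower. Their mean was 6.51 to 7.0 at 24 h, against 7.29 to 7.57 in controls 1 to 3, and 6.83 to 7.14 at 72 h, against 7.22 to 7.53 in controls 4 to 7. The part of these cell type markers in the matrix results was not tested.

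Of the 5 collagen-modifying enzymes among the 43 genes (Lox, Plod1, Plod2, P4ha1 and P4ha2), Plod2 was called. Plod2, a lysyl hydroxylase that prepares collagen for cross-linking, read 9.58, 9.55, 9.68 and 9.83 at 12 h, against 9.05, 9.11, 8.80 and 9.28 in controls 4 to 7, with no overlap, and was 1.51-fold higher (0.60 ± 0.12, adjusted p = 0.00846). Its controls differed between array sets, at 9.71, 9.99 and 9.51 in controls 1 to 3, and without a term for the set the 12 h difference was 0.31 and was not called (adjusted p = 0.411). At 72 h it was 0.41 (adjusted p = 0.0678), called without control 2 or 7 (adjusted p = 0.0463 and 0.0447). Plod1, P4ha1 and P4ha2, other collagen hydroxylases, were not called, with differences of -0.35 to 0.39. Lox, a cross-linking oxidase, Tnc, tenascin C, and Thbs1, thrombospondin 1, lay between 2.25 and 3.18 on all arrays, at the dim end of the array, and were not called.

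Of the matrix-cutting enzymes, Mmp2 was lower and Mmp14 higher. Mmp2, a gelatinase that cuts type IV collagen, read 5.61, 5.67, 5.82 and 6.14 at 12 h, against 6.96, 7.23, 7.00 and 6.85 in controls 4 to 7. It read 4.20, 4.66 and 3.94 at 24 h, against 5.76, 5.93 and 5.33 in controls 1 to 3. The groups were separate at both times, and Mmp2 was 2.30-fold lower at 12 h (-1.20 ± 0.24, adjusted p = 0.00663) and 2.65-fold lower at 24 h (-1.41 ± 0.27, adjusted p = 0.00404; 0.0721 on the 6 arrays of that set alone). The controls themselves lay lower in the set without the spike-in, and without a term for the set the 12 h difference was -0.63 (adjusted p = 0.383). At 72 h it read 6.45, 6.83, 5.83 and 5.66, against the controls given above, and the difference of -0.82 ± 0.24 missed the threshold (adjusted p = 0.0578), except without 24 h replicate 2 (adjusted p = 0.0497) or 72 h replicate 2 (-1.03, adjusted p = 0.0149). A second Mmp2 probe set gave -1.17 at 12 h and -1.22 at 24 h, not called (adjusted p = 0.066 and 0.0569).

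Mmp14, the membrane-bound protease that activates the Mmp2 proenzyme, read 6.88, 7.06, 7.22 and 7.04 at 72 h, against 6.51, 6.75, 6.04 and 6.43 in controls 4 to 7. It was 1.53-fold higher (0.61 ± 0.16, adjusted p = 0.0363), and the groups did not overlap. Leaving out 72 h replicate 2, 3 or 4 or control 4, 6 or 7 ended the call, with differences of 0.48 to 0.64 and adjusted p of 0.0659 to 0.108. At 12 h it was 0.53 (adjusted p = 0.0779), and called without control 5 (0.64, adjusted p = 0.0397). Adamts1, a protease of versican and other large proteoglycans, read 6.68, 6.67, 6.62 and 6.58 at 12 h and 6.18, 6.95, 6.93 and 6.48 at 72 h, against 5.98, 5.97, 5.48 and 4.14 in controls 4 to 7. Every treated testis of that set was above every control, but the controls were spread, and the differences of 1.25 ± 0.36 and 1.24 ± 0.36 were not called (adjusted p = 0.0639 and 0.0604). Leaving out control 3 or 5 at 12 h, or control 3, 4 or 5 at 72 h, brought Adamts1 to adjusted p of 0.0422 to 0.0487.

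**Figure D4:**
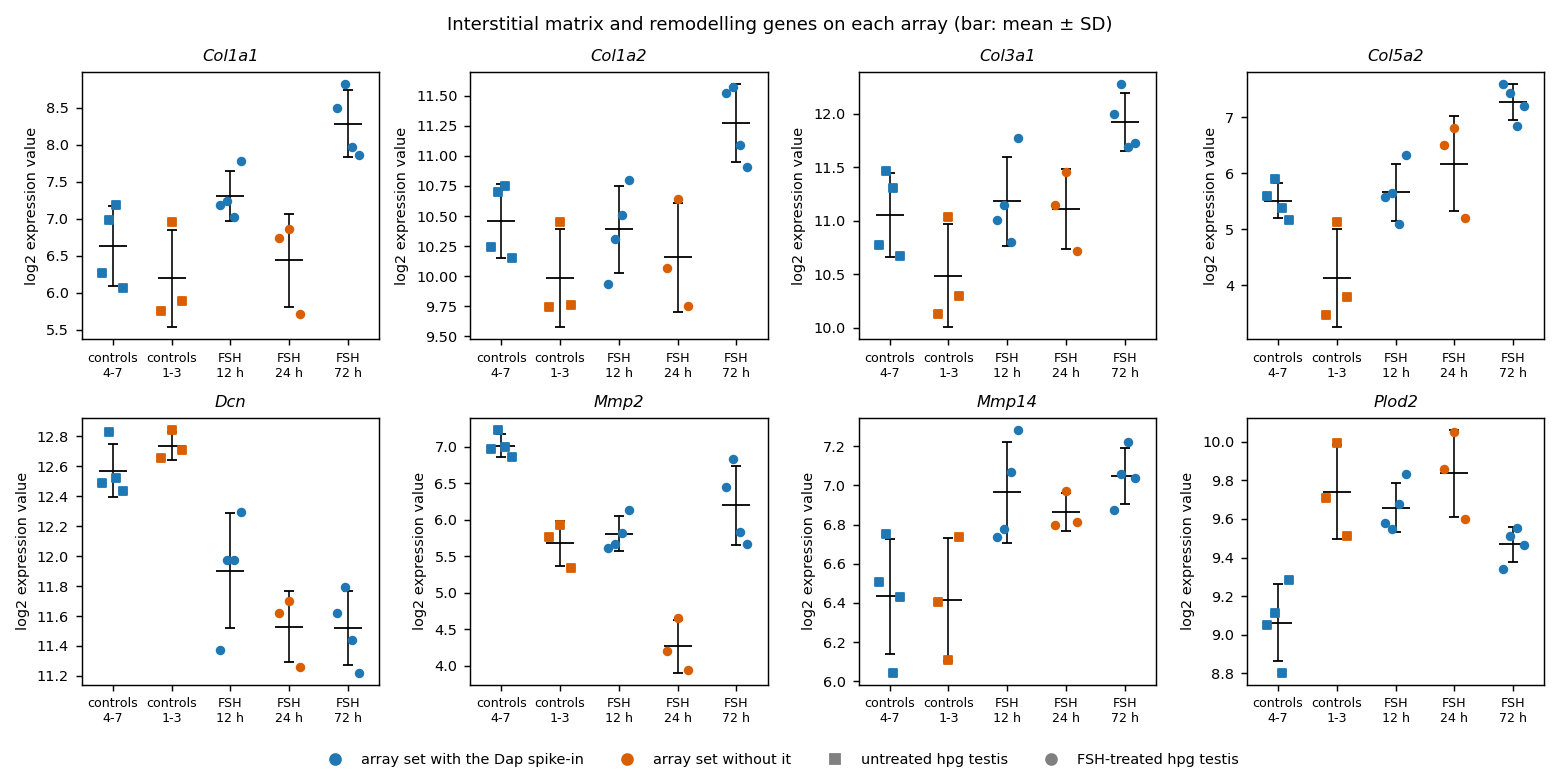
Log2 values of 5 fibrillar or interstitial genes and of Mmp2, Mmp14 and Plod2 on each of the 18 arrays, in columns for controls 4 to 7, controls 1 to 3, 12 h, 24 h and 72 h of FSH. Squares are untreated and circles FSH-treated testes, colour gives the array set, and bars show the mean and SD. The 72 h values of Col1a1 and Col5a2 lie above their controls, and no treated value of Dcn reaches the lowest control of its set.

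Partners of these genes were read from further lists. Of 16 measured genes of collagen and basement membrane assembly, 1, 1 and 3 were higher and 0 lower at 12, 24 and 72 h. Of all genes, 3.52%, 6.37% and 4.23% were called higher at these times, and 2.76%, 8.45% and 3.03% lower. Serpinh1, the collagen chaperone of the endoplasmic reticulum, was higher at each time, at 8.97 to 9.46 at 12 h and 8.76 to 9.22 at 72 h, against 8.05 to 8.45 in controls 4 to 7, and at 9.42 to 10.08 at 24 h, against 8.32 to 8.65 in controls 1 to 3. Its differences were 1.03 ± 0.15, 1.30 ± 0.18 and 0.91 ± 0.15 at 12, 24 and 72 h (adjusted p = 0.000762, 0.000293 and 0.00222). On the 6 arrays of its set alone the 24 h difference of Serpinh1 was not called (adjusted p = 0.0538). P3h1 (0.66, adjusted p = 0.0328) and Crtap (0.47, adjusted p = 0.0452), which together hydroxylate collagen prolines, were higher at 72 h. P3h1 was not called without 72 h replicate 2 or control 4, 5 or 7 (adjusted p up to 0.0856). Crtap was not called without any 12 h or 72 h replicate, 24 h replicate 1, or control 4, 6 or 7 (adjusted p up to 0.134).

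Of 23 measured matrix receptors, 1 was higher at 12 h, 4 were lower at 24 h and 1 was lower at 72 h. The shares of all genes so called were 3.52%, 8.45% and 3.03%. Itga9, the alpha9 integrin that binds tenascin and fibronectin domains, read 2.48 to 3.45 at 24 h, against 6.22 to 6.65 in controls 1 to 3 (-3.36 ± 0.29, adjusted p = 8.23e-06), and 5.48 to 5.90 at 72 h, against 6.56 to 7.38 in controls 4 to 7 (-1.24 ± 0.25, adjusted p = 0.00798). Dimmer probe sets of Itga9 gave 0.24 and -0.26 at 24 h and were not called. Ddr1, a collagen receptor kinase, was -1.09 ± 0.20 at 24 h (adjusted p = 0.00274), Sdc1, the proteoglycan syndecan 1, -1.09 ± 0.22 (adjusted p = 0.00493) and Dag1, the laminin receptor dystroglycan, -0.63 ± 0.11 (adjusted p = 0.00189). On the 6 arrays of that set alone none of these 3 was called (adjusted p = 0.0721, 0.141 and 0.0656). Of the dimmer probe sets, 4 of 7 for Ddr1, 1 of 3 for Sdc1 and 0 of 3 for Dag1 were also called lower at 24 h. Itga6, a laminin-binding integrin chain, was 0.76 ± 0.20 at 12 h (adjusted p = 0.043). It lost that call without 12 h replicate 3 or 4, 24 h replicate 1 or 2, any 72 h replicate, or control 3, 5, 6 or 7 (adjusted p from 0.0505 to 0.134), and on the 12 arrays of that set alone (adjusted p = 0.0715).

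Of 21 further matrix proteases and inhibitors, 1, 1 and 1 were higher and 0, 5 and 3 lower at 12, 24 and 72 h. The shares of all genes were 3.52%, 6.37% and 4.23% higher and 2.76%, 8.45% and 3.03% lower. Timp3, a matrix-bound metalloproteinase inhibitor, read 7.40 to 7.68 at 24 h, against 9.08 to 9.96 in controls 1 to 3 (-1.96 ± 0.26, adjusted p = 0.000257), and 8.20 to 8.53 at 72 h, against 9.29 to 10.19 in controls 4 to 7 (-1.40 ± 0.23, adjusted p = 0.00165). Timp3 at 72 h was also below its 12 h level (-1.20 ± 0.23, adjusted p = 0.011). Of its 3 dimmer probe sets, 2 were called lower at 24 h, 1 at 72 h and 0 between 72 h and 12 h, where they gave -0.76, -0.71 and -0.14 (adjusted p = 0.102, 0.145 and 0.963). Mmp11, a metalloproteinase of stroma, differed by -1.58 ± 0.24 at 24 h (adjusted p = 0.000723) and by -1.01 ± 0.21 at 72 h (adjusted p = 0.00814), and Mmp23 -1.34 ± 0.25 at 72 h (adjusted p = 0.00424; -0.93 and 0.062 without a term for the array set). Also lower at 24 h were Sparcl1 (-1.23, adjusted p = 0.00258) and Adamts10 (-0.96, adjusted p = 0.0203), and Adamts10 was not called without 24 h replicate 1 or control 2 (adjusted p = 0.0566 and 0.0707). The fifth gene called lower at 24 h was Htra1 (-0.59, adjusted p = 0.045), named after its values were seen. It was not called with the replicate number as a block (adjusted p = 0.0539), after quantile normalisation (-0.50, adjusted p = 0.0935) or without 11 of the 18 arrays taken singly (adjusted p from 0.051 to 0.16). On the 6 arrays of that set alone Mmp11, Sparcl1, Adamts10 and Htra1 were not called (adjusted p = 0.0785, 0.051, 0.227 and 0.136). Adamts5, a protease of aggrecan and versican, was higher by 0.86 ± 0.18, 0.68 ± 0.20 and 1.29 ± 0.18 at 12, 24 and 72 h (adjusted p = 0.00842, 0.0392 and 0.000425). At 24 h it was not called without 12 h replicate 2 or 4, 24 h replicate 1 or 2, 72 h replicate 1 or 3, or control 1 or 3 (adjusted p from 0.0501 to 0.157), on the 6 arrays of that set alone (adjusted p = 0.305) or without a term for the set (0.40, adjusted p = 0.133). A dimmer Adamts5 probe set was called at 72 h, but not at 12 h or 24 h (adjusted p = 0.0525 and 0.113).

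Of 31 other laminin, collagen and glycoprotein chains, 1, 1 and 2 were higher and 2, 4 and 5 lower at 12, 24 and 72 h. The shares of all genes were 3.52%, 6.37% and 4.23% higher and 2.76%, 8.45% and 3.03% lower. Lamc3, a laminin gamma chain, read 6.74 to 7.23 at 72 h, against 5.35 to 5.97 in controls 4 to 7 (1.27 ± 0.23, adjusted p = 0.00371), and was higher at 72 h than at 12 h (1.23 ± 0.23, adjusted p = 0.0106). Col6a3, which assembles with the Col6a1 and Col6a2 chains, was 1.36 ± 0.28 at 72 h (adjusted p = 0.00835). Ntn4, a netrin that interrupts laminin networks, was lower at each time, by -1.44 ± 0.30, -2.25 ± 0.35 and -1.34 ± 0.30 (adjusted p = 0.00947, 0.000824 and 0.0141). Smoc1, a Sparc-related protein, was -0.99 ± 0.17 at 12 h (adjusted p = 0.00271), and its relative Smoc2 was -2.30 ± 0.32 at 24 h (adjusted p = 0.000365). At 72 h Smoc1 (-0.64, adjusted p = 0.0417) and Smoc2 (-1.22, adjusted p = 0.0155) were also called lower. The 72 h call of Smoc1 was lost without 12 of the 18 arrays taken singly (adjusted p up to 0.117). That of Smoc2 was lost without 72 h replicate 2 or 4 (adjusted p = 0.0525 and 0.0518). Tgfbi, a collagen-binding adhesion protein, differed by -1.59 ± 0.32 at 24 h (adjusted p = 0.0047) and by -1.28 ± 0.27 at 72 h (adjusted p = 0.0112). Prelp, a proteoglycan that anchors basement membranes, differed by -0.90 ± 0.18 at 24 h (adjusted p = 0.00571) and by -0.95 ± 0.16 at 72 h (adjusted p = 0.00212). A dimmer probe set of Prelp was not called at either time. On the 6 arrays of that set alone the 24 h differences of Smoc2, Tgfbi and Prelp were not called (adjusted p = 0.075, 0.152 and 0.0976). Both at means below 4, Tinagl1 was higher at 12 h (0.29, adjusted p = 0.00665) and Lamb3 at 24 h (0.39, adjusted p = 0.0399), and Lamb3 lost its call without 12 of the 18 arrays taken singly, with the replicate number as a block (adjusted p = 0.101) and on the arrays of its set alone (adjusted p = 0.356).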

How the data were processed

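Each of 18 mice gave 1 testis array, so p-values include the spread between animals, and precision is limited by the number of arrays. The authors deposited log2 expression values per probe set, taken as log2 from their range of 1.04 to 15.16, and per the submitters' processing notes RMA and GCRMA were used, with no word on which of them made the table. Of 22690 probe sets 64 array controls were left out, and 22626 were tested. The platform annotation gave 20380 of them 1 gene symbol, 691 several and 1555 none.

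The values were fitted with limma 3.58.1 in R 4.3.3 (moderated two-sided tests by eBayes after lmFit, on 13 residual degrees of freedom), with a mean per group and a term for array set, so that every difference is from same-set controls. Adjustment was by Benjamini-Hochberg over 22626 probe sets. The fit was tested on simulated data. Differences are log2 of tested minus control values with the standard error (SE). The median over all probe sets was -0.00, 0.04 and 0.01 at 12, 24 and 72 h. Promoter sequences are from RefSeq (GRCm38.p6).

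The members and all gene lists were chosen with earlier results of these data known. Every measured member may be named. From each further list up to 4 called genes with the smallest adjusted p per comparison were named. The 8 other settings were no array set term, the array set alone, a filter on mean values under 4, quantile normalisation, the mean of a gene's probe sets, a trended robust fit, a replicate block and leaving out single arrays.

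Deviations from group means of same-numbered 24 h arrays and controls 1 to 3 correlated at r = 0.179, 0.343 and 0.406. All 6 of these arrays correlated best with the array of their own number in the other group. The labels do not call them pairs, and the main fit did not pair them. The 24 h p-values of the main fit therefore take no account of any pairing. The replicate block gave each number 1 effect shared by all groups and both array sets.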

Additional observations from a re-analysis of the deposited data

Results flagged for a closer look

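Single arrays stood apart from the rest of their group of 4 in 4 of the 129 groups of 4 examined, where chance gives about 1 in 20. For Col15a1, 12 h replicate 1 read 7.14 and the others 6.4 to 6.49 (gap over range 0.875), and control 5 read 6.05 and the other controls of its set 5.38 to 5.49 (0.836). For Fn1, 12 h replicate 3 read 6.14 and the others 6.47 to 6.48 (0.976). For Fbln1, 12 h replicate 1 read 6.75 and the others 7.41 to 7.54 (0.836). None of these 3 genes was called on its brightest probe set.

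The effect of FSH differed between times for 5 genes. At 72 h against 12 h Col4a1 was lower (-1.30 ± 0.25 SE, limma adjusted p = 0.0122), while Col4a3 (2.04 ± 0.25, adjusted p = 0.000552), Col4a4 (1.38 ± 0.15, adjusted p = 0.000223) and Col5a2 (1.61 ± 0.39, adjusted p = 0.0439) were higher. The Col5a2 difference was not called without most single arrays. With 24 h and 12 h each set against its own controls, the 24 h effect was lower for Col4a1 (-2.19 ± 0.38, adjusted p = 0.0162) and Lama1 (-1.24 ± 0.24, adjusted p = 0.0262). Those times lie in different array sets.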

How the results depend on the processing

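Of the 32 calls, none changed direction under any setting. Leaving out probe sets with a mean under 4 and a trended, robust fit each kept all 32. Quantile normalisation and the mean of all probe sets of a gene kept 30 each, no term for array set 28, the array set alone 25, and leaving out single arrays 529 of 576. Genes called higher at 12 h (5) became 9 without the array set term and 9 without dim probe sets. At 24 h the 3 higher and 6 lower became 7 and 11 without that term, and 1 lower within the array set alone, which has 6 arrays. The 1 lower at 72 h became 2 without dim probe sets and 2 with the mean of probe sets. The 1 lower at 72 h against 12 h became 2 within the set and 2 with the mean of probe sets. Without single arrays the counts ran from 5 to 10 higher and 1 to 3 lower at 12 h, 3 to 5 and 3 to 7 at 24 h, 8 to 13 and 1 to 2 at 72 h, and 2 to 3 and 1 to 2 between 72 h and 12 h. With the replicate number as a block 12 of the 32 calls were kept, namely 1 of 7 at 12 h, 8 of 9 at 24 h, 1 of 12 at 72 h and 2 of 4 between 72 h and 12 h, and 1 was gained at 12 h (Fn1, -1.22, adjusted p = 0.0487). The counts under the block were 1 higher and 1 lower at 12 h, 1 and 0 at 72 h, and 0 lower between 72 h and 12 h, where Col4a1 (adjusted p = 0.0627) and Col5a2 (adjusted p = 0.0607) were lost. Of the numbers 1 to 4 of the 12 h and 72 h arrays, controls 4 to 7 share number 4. Numbers 5 to 7 belong to 1 control each, so under the block controls 5 to 7 add nothing to the 12 h and 72 h differences. The calls lost at 12 h and 72 h are therefore no check of pairing. Between 72 h and 12 h same-numbered arrays correlated at 0.107, 0.130, 0.013 and 0.068, and 4 of 8 correlated best with their own number. At 24 h the block changed no other call of a brightest probe set among the 43 genes than those of Lamc1 and Fn1. Apart from the loss of controls 5 to 7, the cause of the other changes was not tested. Values near the dim end of the array give no measure of low transcripts.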
